A study of Mus musculus with 11 samples.

Results

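Hox genes encode homeodomain transcription factors that set position along the body axis, and 33 of them were measured among 18193 named genes in keratinocyte fractions sorted on CD34 from mouse back skin. A gene was a member where the only symbol that the platform annotation gives its probe set was Hox followed by a letter from a to d and a number. The brightest probe set by mean log2 signal over all arrays stood for the gene. The gene annotation lists 39 Hox genes, and the other 6 are not analysed here. The 33 genes came from 48 probe sets and divide into 9 of the Hoxa, 9 of the Hoxb, 7 of the Hoxc and 8 of the Hoxd cluster.

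Both fractions came from K5-myrAkt(L84) mice, in which a keratin 5 promoter drives an active form of the kinase Akt in basal keratinocytes, so CD34+ and CD34- cells carry the same transgene. Back-skin keratinocytes were bound by an antibody against CD34, a surface marker of bulge stem cells of the mouse hair follicle, and were parted with magnetic beads into CD34+ cells (5 arrays) and CD34- cells (6 arrays). CD34- samples are labelled as hair follicle stem cells too, but the design text calls them only CD34- cells. Fractions without the transgene were not analysed here, so the comparison is between fractions and not between genotypes. The labels give no age or hair cycle stage and leave unsaid if each array had its own mouse, so every p-value here reflects the spread between these samples only, which may be technical.

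Mammalian Hox genes lie in 4 clusters, and a gene's number, its paralogue number, follows its place in the cluster. Low numbers act towards the head and high numbers towards the tail and the ends of the limbs. In adult skin, dermal fibroblasts are known to keep regional Hox patterns, as described in human cells, and Hoxc13 drives hair shaft keratin genes in the mouse follicle. Most Hox proteins bind DNA with partners of the TALE class, the Pbx, Meis and Pknox proteins.

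The sort and the arrays set limits on what follows. Cd34 itself averaged 11.83 ± 1.17 log2 signal on CD34+ arrays and 4.20 ± 1.57 on CD34- arrays (SD, n = 5 and 6), with no overlap. CD34+ arrays were less alike than CD34- arrays. Over the genes kept for the main test, correlations were 0.8654 to 0.9759 within CD34+ and 0.9649 to 0.9827 within CD34-. Array 1 of CD34+ had the lowest mean correlation with its group, 0.885. The log2 ratio of 3-prime over 5-prime actin control signal, which is higher where RNA or labelled copies are shorter, was 3.95 ± 0.99 on CD34+ arrays and 2.43 ± 0.19 on CD34- arrays (SD, n = 5 and 6), with no overlap. CD34+ arrays 1 and 2 had the highest ratios, 5.25 and 4.56, and the Hox calls are given with and without them. Dim probe sets also read higher on CD34+ arrays, whose 40th percentile of log2 signal was 0.55 higher on average, so the dimmest 40% of genes were left out of the main test.

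Markers of cells other than keratinocytes moved with the fractions. Among 8 markers of fibroblasts and dermal papilla, all 3 that were tested were higher in CD34+ cells, Col1a2 by 3.49 (limma adjusted p = 2.67e-06), Dcn by 1.53 (limma adjusted p = 9.28e-04) and Pdgfra by 1.59 (limma adjusted p = 0.0196) on the log2 scale. Pdgfra passed the filter only through its CD34+ signal, since its CD34- mean of 6.54 lay under the lowest mean tested, 6.59, and its difference was 1.31 with values raised to one floor of 6.66 on all arrays. The summed linear signal of the 8 was 3200 to 8790 on CD34+ arrays and 528 to 922 on CD34- arrays, while 4 of 5 CD34+ arrays had Col1a1 and Lum under their 40th percentile. All 5 tested T cell markers were lower in CD34+ cells, with sums of 543 to 2550 on CD34+ and 3230 to 6320 on CD34- arrays. Among them were Ptprc (-1.81) and Thy1 (-1.20). Another, Cd7, passed the filter only through its CD34- signal, since its CD34+ mean was 5.095. Raised to the common floor Cd7 differed by -2.28. Of all tested genes 12.4% were called higher and 12.3% lower. The part of fibroblasts and T cells in the Hox values was not tested, and in bulk samples fewer cells of a type and less RNA per cell cannot be told apart.

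Other marker lists moved less or in few members. Of 6 tested myeloid markers 3 were higher, with sums of 1920 to 5740 on CD34+ and 1430 to 2070 on CD34- arrays, where Csf1r differed by 1.20 and Cd74 by 0.62 (limma adjusted p = 0.0878, not called). The smooth muscle gene Acta2 was 2.05 higher, with sums of 452 to 4290 on CD34+ and 276 to 462 on CD34- arrays, while Des was not tested. Basal keratinocyte markers, the labelled cell type, were bright on all arrays, with sums of 85100 to 104000 on CD34+ and 93700 to 121000 on CD34- arrays. Krt5 (-0.07) and Col17a1 (-0.13) were not called, and 2 of the 6, Itga6 (-0.53) and Trp63 (-0.38), were lower. No melanocyte marker of 6 was called (Dct -0.50, Tyrp1 -0.87), with sums of 4900 to 5880 on CD34+ and 3730 to 23100 on CD34- arrays. The sums were 20900 and 23100 on CD34- arrays 1 and 2 and 3730 to 5500 on the other CD34- arrays. Of the Schwann cell markers Mbp was lower by 0.77 and S100b was not tested, and no endothelial marker, Kdr and Tek included, passed the filter.

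Brightness over all arrays decided which Hox genes were tested. Of the 33 genes, 15 passed the brightness filter and were tested. These were Hoxa2, Hoxa3, Hoxa5, Hoxa7 and Hoxa9, then Hoxb2 to Hoxb6, then Hoxc4, Hoxc5, Hoxc6 and Hoxc8, and of the Hoxd cluster Hoxd8 alone. Neither of the 2 genes of paralogue 1 nor any of the 10 genes of paralogues 10 to 13 passed. Just inside the filter stood Hoxb5 and Hoxa3, with mean log2 signals of 7.05 and 7.33, and just outside stood Hoxc13 and Hoxa11, with 6.31 and 5.97. Probe sets differ in brightness for the same amount of RNA, so this split does not rank the genes by expression. Hoxc13, for one, was above the 40th percentile of all 5 CD34+ arrays.

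Of the 15 tested Hox genes, 3 were higher in CD34+ cells and 0 were lower by limma. These were Hoxd8, Hoxc8 and Hoxb3, from 3 different clusters, and no tested Hoxa gene was called. At an unadjusted p under 0.05, limma and the exact permutation test each put 4 Hox genes higher, Hoxc6 the additional one, and 0 lower. No share of all tested genes at that unadjusted threshold is given here. The share of 20.0% called higher stands beside 12.4% of all 10916 tested genes called higher and 12.3% called lower, so 3 of 15 is a count near that background. The median log2 difference of the tested Hox genes was 0.229, with 11 of 15 above 0, beside a median of -0.004 over all tested genes, of which 49.6% were above 0. By cluster the medians were 0.004 for 5 Hoxa genes, 0.287 for 5 Hoxb genes and 0.316 for 4 Hoxc genes, and the single Hoxd gene differed by 3.12.

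**Figure D1:**
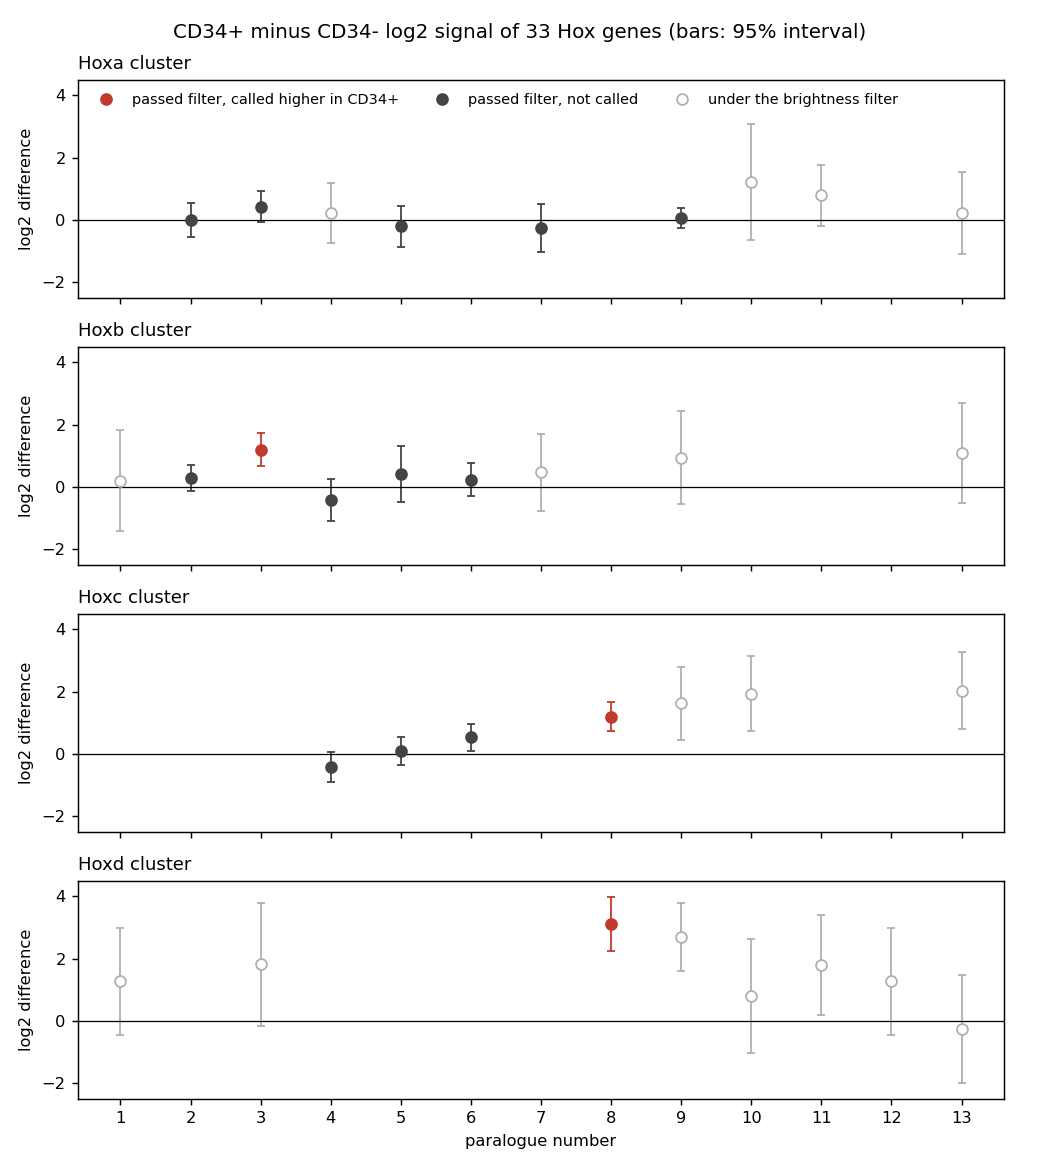
Log2 difference, CD34+ minus CD34-, of 33 Hox genes by cluster (panels) and paralogue number (horizontal axis), with 95% intervals from the limma fit. Filled points passed the brightness filter, and of these Hoxd8 (3.12), Hoxc8 (1.19) and Hoxb3 (1.19), in red, were called; open points are genes under the filter, whose differences include the higher reading of dim probe sets on CD34+ arrays.

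Hoxd8, a central paralogue of the Hoxd cluster that is active in the trunk of the mouse embryo, differed most. Its log2 signal was 11.56, 9.16, 8.91, 9.81 and 9.50 on CD34+ arrays 1 to 5, against a lowest of 5.79, a median of 6.71 and a highest of 7.52 on the 6 CD34- arrays. Every CD34+ array lay above every CD34- array, and CD34+ array 1 was the highest of all. The mean difference was 3.12 log2 (SE 0.41, 8.68-fold, limma adjusted p = 2.48e-04), and the two-sided exact permutation p was 0.00433, the smallest that the 462 splits of 11 arrays allow. Among all tested genes this was the 44th largest difference. A second Hoxd8 probe set also had no overlap and differed by 3.25 (SE 0.49, limma adjusted p = 7.38e-04). That probe set passed the filter only through its CD34+ signal, since its CD34- mean was 5.23. On 4 of the 6 CD34- arrays it lay under the 40th percentile. For the brightest probe set the CD34- mean of 6.67 lay just above the lowest mean tested, 6.59, so its CD34- signal was near the edge of the filter. With values raised to the common floor of 6.66 the difference was 2.96.

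Fibroblast marker signal was highest and lowest on the same CD34+ arrays as Hoxd8. CD34+ array 1 had the highest fibroblast sum (8790) and the highest Hoxd8, and CD34+ array 3 had the lowest of both (3200 and 8.91). CD34+ array 4 came next to array 1 in both (5240 and 9.81). CD34+ arrays 2 (4110 and 9.16) and 5 (3950 and 9.50) were in opposite order. CD34+ array 1 also had the highest actin ratio, and a link of Hoxd8 to fibroblast signal was not tested. Without CD34+ arrays 1 and 2 the Hoxd8 difference was 2.74 (SE 0.32, limma adjusted p = 1.22e-04).

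The start region of Hoxd8 is shown because this gene carries the largest Hox difference, and that of Hoxd9 because it is the adjoining cluster gene with a like difference among the dim genes. Both come from RefSeq on GRCm38.p6, at chr2:74704365-74704664 on the plus strand for Hoxd8 and chr2:74697513-74697812 on the plus strand for Hoxd9. Each runs from 250 bases before the annotated start to 50 after it, and capitals mark a CCAAT box.
Hoxd8: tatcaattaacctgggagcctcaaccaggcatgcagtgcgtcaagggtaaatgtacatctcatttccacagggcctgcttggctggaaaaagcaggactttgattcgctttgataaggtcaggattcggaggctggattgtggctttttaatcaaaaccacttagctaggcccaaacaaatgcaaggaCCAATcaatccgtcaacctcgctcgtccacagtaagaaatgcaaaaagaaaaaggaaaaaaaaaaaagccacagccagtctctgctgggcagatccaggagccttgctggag
Hoxd9: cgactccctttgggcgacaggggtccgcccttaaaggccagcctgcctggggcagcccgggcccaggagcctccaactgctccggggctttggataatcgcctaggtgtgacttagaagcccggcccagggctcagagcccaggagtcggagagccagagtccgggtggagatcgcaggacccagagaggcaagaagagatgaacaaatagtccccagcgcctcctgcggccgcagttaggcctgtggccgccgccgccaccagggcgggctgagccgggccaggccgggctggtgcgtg
These motifs were searched on both strands: TGATNNAT (Pbx-Hox), TGACAG (Meis), TAATTA (homeodomain core), TTTATG (Cdx), CCAAT and TATAAA, and none contains another. Hoxd8 held 1 CCAAT, which 37.4% of all 32851 promoters of this length hold, and Hoxd9 held none of the motifs. Over all promoters the other shares were 8.85% for the Pbx-Hox letters, 19.2% for Meis, 5.29% for the homeodomain core, 11.9% for Cdx and 13.6% for TATAAA. The Hoxd8 window held 6 CpG dinucleotides and the Hoxd9 window 20, where the median was 15 over the windows of the 19 members in the table and 7 over all promoters.

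Hoxc8 and Hoxb3 were each about 1.19 log2 higher in CD34+ cells. Hoxc8, which patterns the lower thoracic skeleton of the mouse, measured 11.65, 10.55, 10.28, 10.78 and 10.94 on CD34+ arrays 1 to 5, against 9.20 (lowest), 9.66 (median) and 10.06 (highest) on CD34- arrays. Although it was among the brighter Hox probe sets in both fractions, the arrays did not overlap. Its difference was 1.19 (SE 0.22, 2.29-fold, limma adjusted p = 0.00221), and it was 1.02 (limma adjusted p = 0.00392) without CD34+ arrays 1 and 2.

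Hoxb3, a low paralogue that acts in the hindbrain and the neck of the mouse embryo, measured 9.67, 9.53, 8.78, 10.03 and 9.84 on CD34+ arrays, against 7.60 (lowest), 8.53 (median) and 8.74 (highest) on CD34- arrays. CD34+ array 3, the lowest of its fraction, lay just above the highest CD34- array, and the fractions did not overlap. The difference was 1.19 (SE 0.25, 2.29-fold, limma adjusted p = 0.00418), and 1.17 (limma adjusted p = 0.0157) without CD34+ arrays 1 and 2. Its second probe set gave 0.35 (limma adjusted p = 0.347), with overlapping arrays, so the Hoxb3 call rests on 1 of 2 probe sets.

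All 3 calls were kept when each array was left out in turn, with Hoxd8 at 2.68 to 3.34, Hoxc8 at 0.99 to 1.33 and Hoxb3 at 1.04 to 1.39. None was kept in a fit that took the actin ratio as covariate. It gave 2.43 (SE 0.62, limma adjusted p = 0.0882) for Hoxd8, 0.87 (SE 0.34, limma adjusted p = 0.272) for Hoxc8 and 1.41 (SE 0.39, limma adjusted p = 0.112) for Hoxb3. Since the ratio does not overlap between the fractions, the 2 cannot be cleanly told apart in these arrays.

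**Figure D2:**
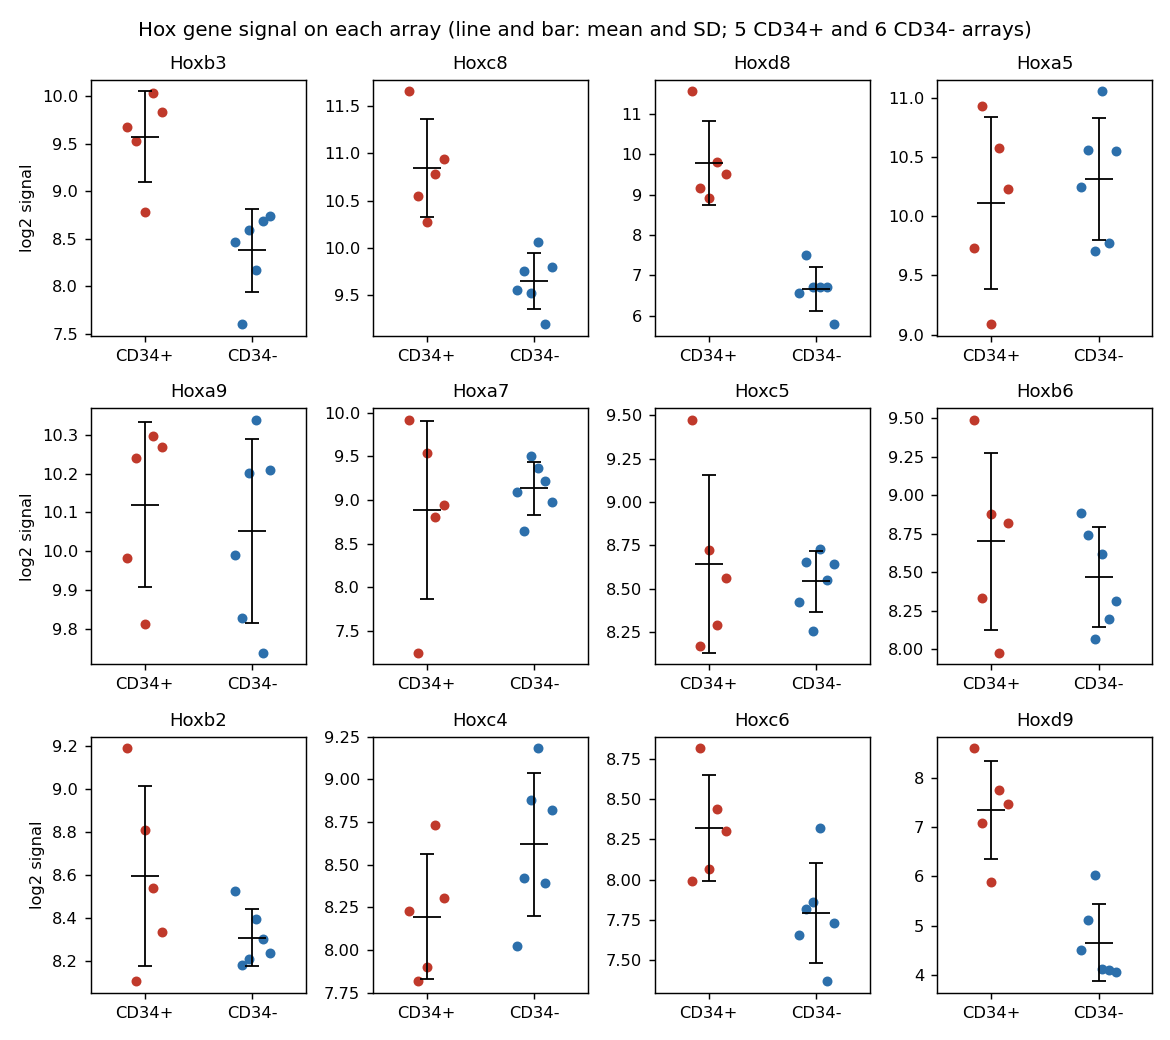
Log2 signal of 12 Hox genes on each array, CD34+ (red, n = 5) left of CD34- (blue, n = 6), with the mean and SD as lines; each panel has its own vertical axis, which does not start at 0. Hoxd8, Hoxc8 and Hoxb3 do not overlap between the fractions, while Hoxa5, Hoxa9, Hoxa7 and Hoxc5 do.

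The Hoxa cluster held some of the brightest Hox probe sets without a call. Hoxa5, needed for lung and lower neck development in the mouse, measured 9.73, 10.93, 9.09, 10.58 and 10.23 on CD34+ arrays, against 9.71 (lowest), 10.40 (median) and 11.05 (highest) on CD34- arrays. Hoxa9, a regulator of blood stem cells and of the lumbar axis in mice, measured 9.98, 10.24, 9.81, 10.30 and 10.27 on CD34+ arrays, against 9.74, 10.10 and 10.34. The fractions overlapped for both genes, though CD34+ array 3 was the lowest of all arrays for Hoxa5. Hoxa5 differed by -0.20 (SE 0.31, limma adjusted p = 0.656) and Hoxa9 by 0.07 (SE 0.15, limma adjusted p = 0.759), with a 95% interval for Hoxa9 of -0.25 to 0.38. A dimmer Hoxa9 probe set gave 0.82 (limma adjusted p = 0.0696).

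Hoxa7, which acts in the thoracic skeleton, spread widely in CD34+ cells, with 9.92, 7.24, 9.54, 8.80 and 8.94, against 8.64 (lowest), 9.16 (median) and 9.51 (highest) on CD34- arrays. The SD was 1.03 over CD34+ and 0.31 over CD34- arrays, and CD34+ array 2 was far under all others. Its difference of -0.25 (SE 0.36) had a limma adjusted p of 0.642, and without CD34+ array 2 it was 0.16 (limma adjusted p = 0.639). Hoxa3, a gene of thymus and parathyroid formation, differed by 0.43 (limma adjusted p = 0.193), and Hoxa2, which patterns the pharyngeal arches, by 0.00 (limma adjusted p = 0.994).

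In the Hoxb cluster Hoxb3 stood apart from its neighbours by its call, though the differences between neighbours were not tested. Hoxb2, a hindbrain gene, measured 9.19, 8.11, 8.81, 8.54 and 8.34 on CD34+ arrays, against 8.18 (lowest), 8.27 (median) and 8.53 (highest) on CD34- arrays. Hoxb6 measured 9.49, 8.33, 8.88, 7.98 and 8.82 on CD34+ arrays, against 8.07, 8.47 and 8.89. Both overlapped, and CD34+ array 1 was the highest of all arrays for each. Hoxb2 differed by 0.29 (SE 0.19, limma adjusted p = 0.28) and Hoxb6 by 0.23 (SE 0.25, limma adjusted p = 0.523). Hoxb4, known for expanding blood stem cells when overexpressed, differed by -0.43 (limma adjusted p = 0.331) and Hoxb5 by 0.41 (limma adjusted p = 0.499), both with CD34+ array 2 lowest of all arrays. Without that array Hoxb5 differed by 0.88 and was called (limma adjusted p = 0.0294), which made 4 Hox genes higher, while Hoxb4 differed by -0.08 (limma adjusted p = 0.793).

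Along the Hoxc cluster the difference of the brightest probe set was larger at each later gene that was tested. It was -0.42 for Hoxc4, 0.10 for Hoxc5, 0.53 for Hoxc6 and 1.19 for Hoxc8, of which Hoxc8 alone was called. Differences between these neighbours were not tested. With the actin ratio as covariate the order was not kept, at -0.10 for Hoxc4 and -0.39 for Hoxc5. It also depended on the Hoxc6 probe set, as the others gave 0.93, which kept the order, and 0.065, under Hoxc5. Hoxc4 measured 8.23, 7.82, 7.90, 8.73 and 8.30 on CD34+ arrays, against 8.02 (lowest), 8.62 (median) and 9.18 (highest) on CD34- arrays (SE of the difference 0.23, limma adjusted p = 0.181). Hoxc5 measured 9.47, 8.17, 8.73, 8.29 and 8.56 on CD34+ arrays, against 8.26, 8.60 and 8.73 (SE 0.21, limma adjusted p = 0.754). For both the fractions overlapped.

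Hoxc6, a gene of the thoracic level near the forelimb, measured 7.99, 8.82, 8.07, 8.44 and 8.30 on CD34+ arrays, against 7.37 (lowest), 7.78 (median) and 8.32 (highest) on CD34- arrays. Only CD34- array 4 reached into the CD34+ range. The difference of 0.53 (SE 0.21) had a limma adjusted p of 0.0738 and a two-sided exact permutation p of 0.026. Its probe sets disagreed: a second gave 0.93 (limma adjusted p = 0.013, no overlap) and the remaining one 0.06 (limma adjusted p = 0.907). Without CD34+ array 1 the brightest one was called (0.61, limma adjusted p = 0.0464), as it was without CD34- array 4 (0.64, limma adjusted p = 0.048).

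**Figure D3:**
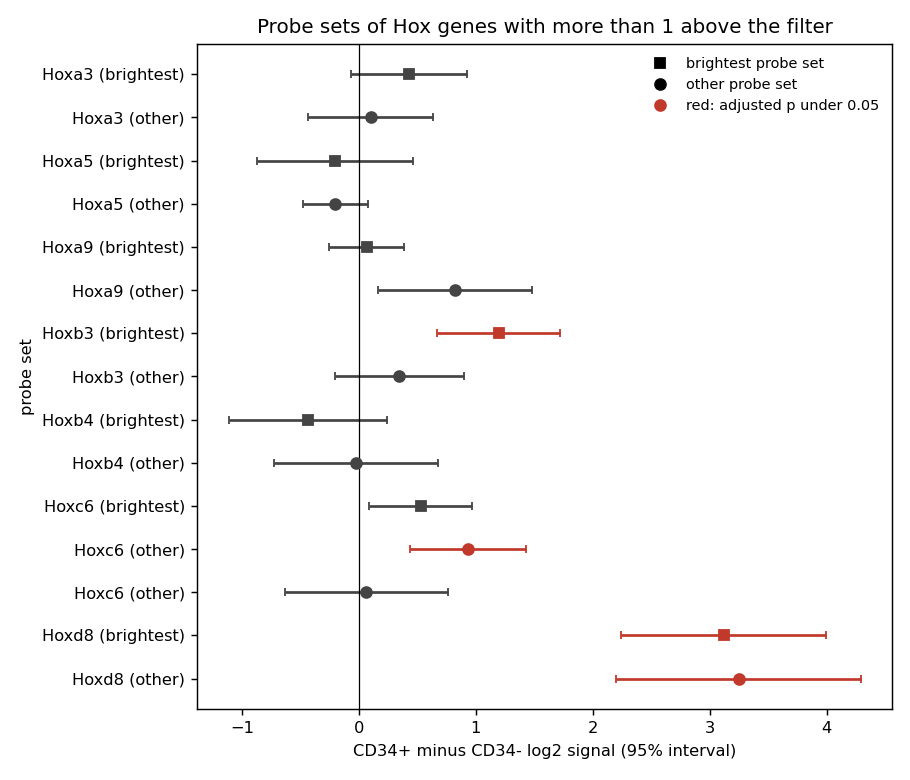
Log2 difference, CD34+ minus CD34-, with 95% intervals, for each probe set above the brightness filter of the 7 Hox genes with more than 1 such probe set; squares are the brightest probe set of a gene, circles the others, and red marks an adjusted p under 0.05. Both Hoxd8 probe sets were called (3.12 and 3.25), as were 1 of 2 for Hoxb3 and 1 of 3 for Hoxc6. The dimmer Hoxd8 probe set passed the filter only through its CD34+ signal (CD34- mean 5.23).

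The 18 Hox genes under the filter nearly all read higher on CD34+ arrays, as did dim genes in general. Their differences were above 0 in 17 of 18, with a median of 1.153, beside 81.3% and a median of 0.696 among all 7277 genes that the filter leaves out. After quantile normalization 13 of the 18 were above 0, with a median of 0.491, beside 55.8% and 0.117. Hoxd13, which shapes the digits, was the exception before normalization (-0.25). A low value is read here as dim, not as absent.

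With no brightness filter limma put 9 Hox genes higher and 0 lower at an unadjusted p under 0.05, for which no share of all genes is given. At the adjusted threshold 6 of 33 Hox genes (18.2%) were called higher by limma and 0 lower. Beside these stand 8.23% of all 18193 genes called higher and 6.44% called lower. The filter had left out 3 of these 6, Hoxd9, Hoxc13 and Hoxc10, which are 3 of 18 dim Hox genes (16.7%), beside 5.98% of all genes it leaves out. Every CD34+ array lay above every CD34- array for 5 of 33 Hox genes (15.2%), beside 6.24% of all genes. These 5 were Hoxd8, Hoxc8, Hoxb3, Hoxc10 and Hoxc13.

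Hoxd9, a limb and trunk gene next to Hoxd8, measured 8.60, 7.08, 5.88, 7.75 and 7.47 on CD34+ arrays, against 4.06 (lowest), 4.31 (median) and 6.02 (highest) on CD34- arrays. CD34+ array 3 fell within the CD34- range, and the other 4 lay above it. The difference was 2.70 (SE 0.51, limma adjusted p = 0.00312 over all genes), and was called with each array left out in turn and without CD34+ arrays 1 and 2 (2.38, limma adjusted p = 0.0199). All 6 CD34- arrays and 1 CD34+ array lay under the common floor of 6.66, and raised to it the difference was 0.85 (limma adjusted p = 0.0931), so its size and its call depend on dim values.

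Hoxc13, the hair shaft regulator, measured 8.88, 6.71, 7.37, 7.35 and 6.79 on CD34+ arrays, against 2.96 (lowest), 5.68 (median) and 6.40 (highest) on CD34- arrays. The fractions did not overlap, and its difference was 2.03 (SE 0.59, limma adjusted p = 0.0314). Hoxc10, a gene of the lumbar axis and hindlimb, measured 6.38, 6.40, 4.29, 4.46 and 4.79 on CD34+ arrays, against 2.94, 3.33 and 3.90, a difference of 1.94 (SE 0.56, limma adjusted p = 0.0315). It too had no overlap, yet was under the 40th percentile of 4 CD34+ arrays. Neither call was kept after quantile normalization (limma adjusted p = 0.111 for Hoxc13 and 0.0992 for Hoxc10), or without CD34+ arrays 1 and 2 (0.113 and 0.207). With every probe set tested by itself, that of Hoxc13 passed the filter and was called (2.03, limma adjusted p = 0.0275), while that of Hoxc10 did not pass. Hoxc13 passed there only through its CD34+ signal, since its CD34- mean was 5.39. Raised to the common floor, Hoxc13 differed by 0.76 (limma adjusted p = 0.2) and Hoxc10 by 0.00.

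The dim genes that were not called had wide intervals. Hoxc9 differed by 1.63 (95% interval 0.45 to 2.80, limma adjusted p = 0.0599), being under the 40th percentile of 3 CD34+ and all 6 CD34- arrays. Hoxd11, which shapes the forearm, differed by 1.78 and Hoxd3, a gene of the neck vertebrae, by 1.81 (limma adjusted p = 0.12 and 0.192). Hoxa10, Hoxa11, Hoxb9, Hoxb13, Hoxd1, Hoxd10 and Hoxd12 lay between 0.78 and 1.27. Hoxa4, Hoxa13, Hoxb1 and Hoxb7 lay between 0.20 and 0.47. The lowest limma adjusted p of these 11 was 0.255, for Hoxa11.

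**Figure D4:**
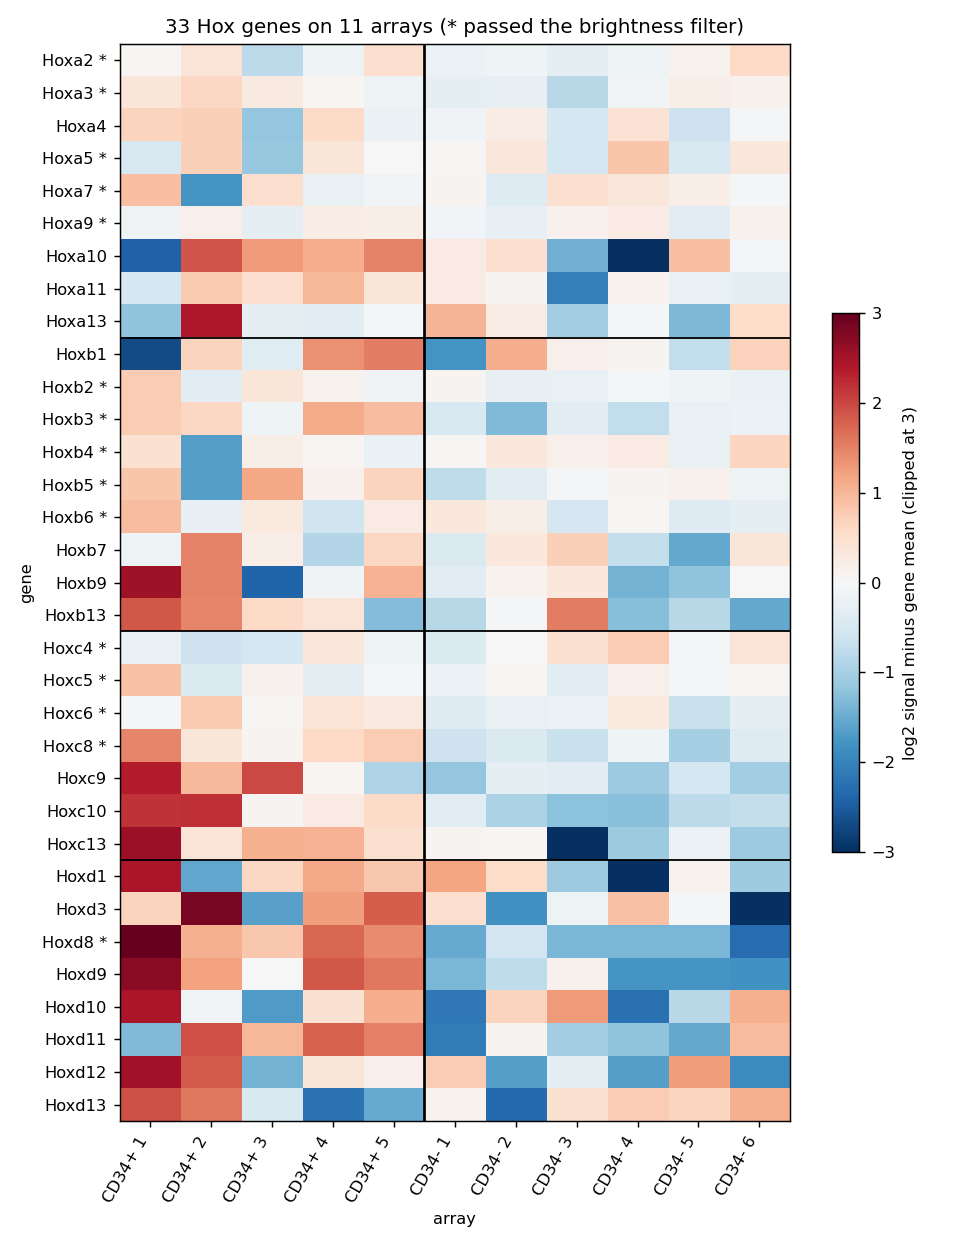
Log2 signal of each of 33 Hox genes (lines of the map, by cluster and paralogue) minus the gene's mean, on 5 CD34+ arrays (left of the black line) and 6 CD34- arrays (right); red is above the mean, blue below, and the colours end at 3. Hoxd8, Hoxc8 and Hoxb3 are red or near white on CD34+ arrays and blue or near white on CD34- arrays. Most starred Hoxa and Hoxb genes show no such split.

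Hox genes did not move alike across CD34+ arrays. The median deviation of the tested Hox genes from their CD34- mean was 0.79 on CD34+ array 1 and 0.19 to 0.40 on the other 4, against -0.09 to 0.19 on CD34- arrays. CD34+ array 1 gave the highest value of all arrays for Hoxd8, Hoxc8, Hoxa7, Hoxb2, Hoxb6 and Hoxc5, but not for Hoxb3.

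Of the TALE cofactors, 2 of 6 tested were called higher in CD34+ cells and 0 lower by limma. Of all tested genes 12.4% were called higher and 12.3% lower. The TALE counts were the same at an unadjusted p under 0.05, for which no share of all genes is given. Pbx3 measured 13.82, 11.32, 11.30, 11.85 and 11.90 on CD34+ arrays, against 9.48 (lowest), 9.91 (median) and 10.15 (highest) on CD34- arrays, a difference of 2.17 (SE 0.36, limma adjusted p = 0.00112). Pknox2 measured 8.98, 8.52, 8.35, 8.96 and 8.54 on CD34+ arrays, against 6.73, 7.29 and 7.81, a difference of 1.40 (SE 0.21, limma adjusted p = 6.06e-04). Neither overlapped between fractions, and a second Pbx3 probe set gave 1.58 (limma adjusted p = 0.00324). Without CD34+ arrays 1 and 2 Pbx3 differed by 1.82 (limma adjusted p = 3.27e-05) and Pknox2 by 1.35 (limma adjusted p = 0.00229). Meis1 (0.44) and Meis2 (-0.54) were not called (limma adjusted p = 0.252 and 0.31). After adjustment for the actin ratio neither Pbx3 (1.30, limma adjusted p = 0.26) nor Pknox2 (1.34, limma adjusted p = 0.0818) was called.

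Noncoding RNA genes within the clusters are named here after their values were seen, and 5 of the 32 annotated there were measured. Hoxb5os, in the Hoxb cluster, measured 10.62, 9.52, 8.03, 9.18 and 8.35 on CD34+ arrays, against 6.33 (lowest), 6.52 (median) and 6.96 (highest) on CD34- arrays, with no overlap. It differed by 2.58 (SE 0.37, limma adjusted p = 4.41e-04), and by 1.96 (limma adjusted p = 3.82e-04) without CD34+ arrays 1 and 2. Hoxb5os passed the filter only through its CD34+ signal, since its CD34- mean was 6.56 and 5 of 6 CD34- arrays lay under the common floor. Raised to the floor it differed by 2.43 (limma adjusted p = 0.00726 with no filter). Gm15050, in the Hoxa cluster, differed by 0.30 (limma adjusted p = 0.476).

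In the Hoxd cluster Hoxd3os1, under the filter, measured 8.48, 7.11, 7.70, 8.18 and 8.08 on CD34+ arrays, against 0.90 (lowest), 4.33 (median) and 5.43 (highest) on CD34- arrays. All 6 CD34- arrays were under their 40th percentile and no CD34+ array was. The difference was 3.97 (limma adjusted p = 0.00122 with no filter), 1.25 (limma adjusted p = 0.00698) with values raised to the common floor, and 4.05 (limma adjusted p = 0.00694) without CD34+ arrays 1 and 2. A dimmer Hoxd3os1 probe set overlapped between fractions, at 4.59 to 7.27 on CD34+ and 1.89 to 5.93 on CD34- arrays. Gm38462 in the same cluster differed by 2.79 (limma adjusted p = 0.0322), but by 0.00 with values raised to the floor, and Hoxa11os by 1.16 (limma adjusted p = 0.304).

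Of 23 tested regulators that set or read chromatin at Hox clusters, 1 was called higher and 2 lower, no larger a share in either direction than the 12.4% and 12.3% of all tested genes. Ezh2, the methyltransferase of Polycomb repressive complex 2, was lower by 0.85 (SE 0.21, limma adjusted p = 0.0116), at 9.77 to 11.21 on CD34+ arrays and 11.37 to 11.74 on CD34- arrays. Without CD34+ arrays 1 and 2 its difference was -0.495 (limma adjusted p = 0.013). Kdm6a, a demethylase that removes the mark Ezh2 sets, was also lower, by 0.62 (limma adjusted p = 0.0243), a call lost without CD34+ arrays 1 and 2 (0.43, limma adjusted p = 0.0978). Phc2, a Polycomb complex 1 member, was higher by 0.58 (limma adjusted p = 0.0278), but its second probe set gave -0.13 (limma adjusted p = 0.649), and its call was lost without CD34+ arrays 1 and 2 (limma adjusted p = 0.0524). The upstream axial genes Cdx1, Cdx2, Cdx4 and Gdf11 were all under the filter. Of 19 other regional patterning factors measured, 1 was tested, the limb and craniofacial gene Msx1 (0.53, limma adjusted p = 0.113).

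**Figure D5:**
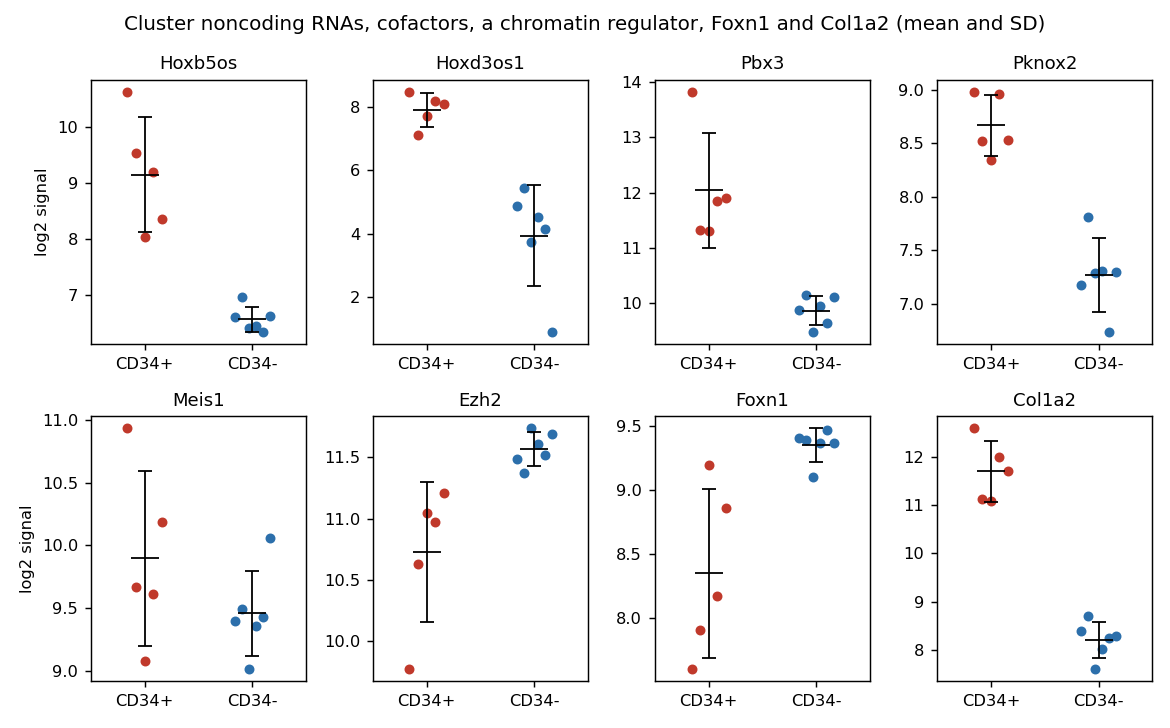
Log2 signal on each array of 2 noncoding RNA genes of the clusters, 3 TALE cofactors, Ezh2, Foxn1 and the fibroblast marker Col1a2, CD34+ (red, n = 5) left of CD34- (blue, n = 6), with mean and SD; vertical axes differ and do not start at 0. Hoxb5os, Hoxd3os1, Pbx3, Pknox2 and Col1a2 lie wholly higher in CD34+ cells and Ezh2 wholly lower, while Meis1 overlaps.

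Hair shaft keratins and matrix factors, the genes downstream of Hoxc13 in the mouse follicle among them, did not move one way. Of 8 tested, Krt81, a hair cortex keratin, was higher (1.12, limma adjusted p = 0.0437), and Foxn1, a matrix and shaft regulator (-1.01, limma adjusted p = 0.0106), and Krt32, a hair cuticle keratin (-0.69, limma adjusted p = 0.0198), were lower, beside 12.4% and 12.3% of all tested genes. The Krt81 call was lost without CD34+ arrays 1 and 2 (0.47, limma adjusted p = 0.0922), with quantile normalization (limma adjusted p = 0.0994), equal medians (0.129) or no filter (0.0543), and without CD34+ array 2 (0.0764) or any single CD34- array (0.0593 to 0.0818). Without CD34+ arrays 1 and 2 Foxn1 differed by -0.61 (limma adjusted p = 0.0473). The summed linear signal of the list was 22900 on CD34+ array 1, where Hoxc13 was also highest, and 3810 to 5370 on the other CD34+ arrays, against 4980 to 8360 on CD34- arrays.

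Flanking genes were called at shares near those of all tested genes, 12.4% higher and 12.3% lower. Of the 5 nearest coding genes on either side of each cluster, 38 of 40 were measured, 31 were tested, 5 were higher and 4 lower in CD34+ cells. Beside the Hoxa cluster Jazf1 (1.09), Creb5 (0.93) and Nfe2l3 (0.54) were higher and Skap2 (-0.48) lower, and a second Skap2 probe set gave 0.34 (limma adjusted p = 0.0263), the opposite direction. Beside Hoxb, Copz2 (0.64) was higher and Nfe2l1 (-0.75) lower. Beside Hoxc, Npff (0.97) was higher, and Hnrnpa1 (-0.57) and Copz1 (-0.39) were lower. No tested flanking gene of the Hoxd cluster was called, although its Hoxd8 differed by 3.12. Equal medians ended all 5 calls of higher flanking genes, and quantile normalization ended those of Jazf1 (0.72, limma adjusted p = 0.149), Npff (0.67, limma adjusted p = 0.0954) and Copz1 (-0.31, limma adjusted p = 0.0688). The mean of probe sets ended those of Skap2, Nfe2l3, Creb5 and Copz1. Tested by themselves, however, second probe sets of Creb5 (1.62, limma adjusted p = 2.3e-04) and Nfe2l3 (0.92, limma adjusted p = 0.0466) were also called higher. Without CD34+ arrays 1 and 2 the calls of Npff (0.83, limma adjusted p = 0.0786), Hnrnpa1 (-0.45, limma adjusted p = 0.0695) and Copz1 (-0.30, limma adjusted p = 0.111) were lost.

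Adjustment for the actin ratio ended most of these further calls too. It left Hoxd9 at 2.54 (limma adjusted p = 0.249), Hoxd3os1 at 4.40 (limma adjusted p = 0.0873), Hoxb5os at 1.52 (limma adjusted p = 0.157) and Ezh2 at -0.12 (limma adjusted p = 0.872), and it ended the calls of Kdm6a, Phc2, Krt81, Foxn1 and all 9 flanking genes. Krt81 turned to -0.26 and Phc2 was 0.09, whereas Nfe2l1 stood at -0.74, Copz2 at 0.58 and Nfe2l3 at 0.68, close to or above their size without the adjustment but with wider errors (SE 0.30, 0.26 and 0.24, against 0.19, 0.16 and 0.15). Krt32 stayed called lower, at -1.27 (limma adjusted p = 0.0222). The part of RNA state in the Hox differences was not tested beyond this fit.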

How the data were processed

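Total RNA from 5 CD34+ and 6 CD34- fractions was measured on single-channel Affymetrix arrays, grouped by the sample titles. The authors deposited log2 signals per probe set, computed by MAS5 per the submitters' processing notes, and the log2 scale was inferred from their values. No MAS5 version or setting is given in the sources used here. The mean linear signal, trimmed by 2% at each end, was 500.002 to 500.004 on every array, and values were used as deposited. The number of arrays limits the precision.

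Of 45101 probe sets, 34945 had 1 symbol in the platform annotation and were used, 932 had several and 9160 had none, besides 64 controls. Gene names were updated through GRCm38.p6 for 34741. The dimmest 40% of genes by mean were left out and 10916 were tested with limma 3.58.1 in R 4.3.3 (intensity trend, Benjamini-Hochberg over all tested genes, called at an adjusted p under 0.05). Each limma adjusted p is from that fit, or from the same model with no filter or for every probe set by itself where so described. The members and lists were chosen with earlier results of these data known. Named are all Hox genes, with array values for called and the 8 brightest uncalled ones, the called companions of smallest p, the 2 brightest markers per list and the called flanking genes. Further genes are named to complete small counts. In simulated data for this comparison with 10916 genes the fit recovered 11 of 50 genes changed 1.5-fold, 40 changed 2-fold, and 50 changed 4-fold, with 5 false calls. The simulation gave both fractions the same SD per gene and changed far fewer genes than were called here. In the data CD34+ arrays were less alike, so these counts need not hold for them.

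Alternatives were other normalizations, filters, probe set rules and moderation, array weights, the actin ratio as a covariate, a replicate block, and arrays left out. Fits of dim genes under these settings and a common floor were chosen after seeing the data.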

Additional observations from a re-analysis of the deposited data

Results flagged for a closer look

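Of 42 groups of arrays examined for a value far from the rest, 2 stood out, and chance alone gives about 1 in 20. Hoxc13 on CD34- array 3 was 2.96, the lowest of the 6 CD34- arrays, with a gap to the next of 0.658 of the whole range. Hoxd3os1 on CD34- array 6 was 0.90 (0.897), with a gap of 0.629 of the range. Both values lie under the 40th percentile of their array.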

How the results depend on the processing

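The 3 Hox calls stood under quantile normalization, equal medians, no filter, array weights, a threshold of 0.01 and each array left out, but Hoxd8 did not pass a filter that left out the dimmest 60% of genes, and none of the 3 was called (0) when the actin ratio was added to the model. With no filter 6 were called. With every probe set by itself, that of Hoxc13 passed the filter, only through its CD34+ signal, and was called as well. Equal medians shifted all genes by a median of -0.48, and 2 Hox genes were then called lower, Hoxb4 (-0.91, limma adjusted p = 0.0411) and Hoxc4 (-0.90, limma adjusted p = 0.00969). Counts of all genes higher and lower were 396 and 5212 with equal medians, 96 and 30 with the actin ratio and 548 and 456 at 0.01. Genes higher numbered 743 without the dimmest 60%, genes lower 783 with the mean of probe sets, and genes lower 896 to 1419 with 1 array left out. Companion members higher numbered 4, but 2 with equal medians, without the dimmest 60%, without CD34+ arrays 1 and 2 or at 0.01, 0 with the actin ratio, and 2 to 5 with 1 array left out. Companion members lower numbered 4, but 17 with equal medians, 1 with the actin ratio and 0 at 0.01. The median Hox difference was -0.251 with equal medians, 0.529 with no filter and -0.020 with the actin ratio. The cause of these changes was not tested.

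Among uncalled genes the direction turned with equal medians for Hoxa9 (-0.41), Hoxc5 (-0.38), Hoxb6 (-0.25) and Hoxb2 (-0.19). With the actin ratio it turned for Hoxc5 (-0.39) and Hoxb6 (-0.32), and Hoxc5 also turned with quantile normalization (-0.049), array weights (-0.054) and without CD34+ arrays 1 and 2 (-0.016). With 1 array left out Hoxa5 ran from -0.410 to 0.051, Hoxa7 from -0.51 to 0.16 and Hoxc5 from -0.11 to 0.22.

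Replicate numbers were shared by 5 pairs, whose deviations correlated at 0.0202 to 0.192, and 1 of 5 arrays correlated best with its own number, so the numbers were not taken as pairs. The fit with a replicate block called the same number, 3 Hox genes higher, and 1043 genes higher and 991 lower in all. It left Nfe2l3 (limma adjusted p = 0.0566), Jazf1 (0.0578), Npff (0.0574) and Copz1 (0.0697) beside the clusters uncalled.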

Other observations

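The genes whose log2 signal followed Hoxd8 most closely over the 11 arrays were Tubgcp4 (Pearson r = 0.977), Prrg3 (0.977), Cadm1 (0.975), Nrcam (0.973) and Ncald (0.973). These values include the difference between the fractions and are given as a description. Over the 5 CD34+ arrays alone r was 0.978 for Tubgcp4, 0.946 for Prrg3, 0.986 for Cadm1, 0.984 for Nrcam and 0.915 for Ncald. Hoxd8 itself was 11.56 on CD34+ array 1 and at most 9.81 on the other CD34+ arrays. Over the 6 CD34- arrays alone r was 0.538 for Tubgcp4, 0.557 for Prrg3, 0.648 for Cadm1, 0.375 for Nrcam and 0.72 for Ncald. All 5 genes were higher in CD34+ cells, by 0.78 for Tubgcp4, a gamma-tubulin complex protein, up to 2.62 for Nrcam, a neuronal cell adhesion protein.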
